A study of Mus musculus with 12 samples.

Results

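The genes described here make, attach and first trim the asparagine-linked (N-linked) glycan, and there are 44 of them among the 53715 gene identifiers counted in mouse spleen. They were chosen by symbol, through the GRCm38 annotation, from the known steps of the route, with earlier results of these data known. All 44 had enough reads to be tested, among 18542 genes tested in all. They were sorted into 7 roles: 4 genes that make UDP-GlcNAc, 5 that make GDP-mannose, 7 for dolichol and its sugar phosphates, 6 that build the glycan on the cytosolic face of the endoplasmic reticulum, 6 that extend it on the luminal face, 10 subunits of the oligosaccharyltransferase and 6 enzymes of trimming and first branching.

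The question the study asks is what prolonged inhibition of glycolysis does to B cells of mice prone to autoimmunity. Total spleen RNA was sequenced from 12 libraries, 4 in each of 3 groups. All 3 groups carried the genotype BXSB.Cg-Cd8atm1Mak Il15tm1Imx Yaa, called Yaa DKO, so the targeted Cd8a and Il15 alleles and the Yaa locus were shared by treated and untreated mice, and no group lacked them. The groups were pre-symptomatic mice aged 6 weeks without treatment (replicates 1 to 4), symptomatic mice aged 10 weeks without treatment (replicates 5 to 8), and mice of the same symptomatic age, 10 weeks, given 2-deoxyglucose (2DG) at 6 g/L in drinking water (replicates 9 to 12). The labels do not say how long 2DG was given or whether each library came from its own mouse, so p-values measure the spread between these libraries, which may be partly technical. No group had 2DG at 6 weeks, and the untreated 10-week libraries serve in both the 2DG comparison and the age comparison.

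N-linked glycosylation begins in the cytosol, where sugars are activated as UDP-GlcNAc and GDP-mannose. They are assembled on the lipid carrier dolichol, first facing the cytosol and then, after the lipid-linked glycan is flipped, inside the endoplasmic reticulum. The oligosaccharyltransferase moves the finished glycan onto asparagine residues of new proteins, glucosidases and mannosidases trim it as the protein folds, and Golgi enzymes then branch it. Antibody-secreting plasma cells use the route heavily, because immunoglobulin heavy chains carry N-glycans. 2DG is a glucose analogue that blocks glycolysis, and it also resembles mannose and can enter lipid-linked glycans in its place.

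The promoters of 4 oligosaccharyltransferase genes that fell with 2DG (Rpn1, Ddost, Krtcap2 and Stt3a) and of Stt3b, which did not pass the test, are shown first because these genes encode parts of one enzyme. Each sequence runs 5′ to 3′ along the gene's strand, from 250 bases before the RefSeq start to 30 bases after it (RefSeq, GRCm38.p6). Capitals mark CCAAT and CCACG, on either strand, so that ATTGG and CGTGG are in capitals too. Rpn2 and Ostc also fell with 2DG but are not printed. No sequence was at hand for Ostc, and those of Rpn2 hold no CCACG on either strand. Each printed sequence holds both elements, so the printed genes do not stand for every subunit gene that fell.
Rpn1, chr6:88084223-88084502, plus strand: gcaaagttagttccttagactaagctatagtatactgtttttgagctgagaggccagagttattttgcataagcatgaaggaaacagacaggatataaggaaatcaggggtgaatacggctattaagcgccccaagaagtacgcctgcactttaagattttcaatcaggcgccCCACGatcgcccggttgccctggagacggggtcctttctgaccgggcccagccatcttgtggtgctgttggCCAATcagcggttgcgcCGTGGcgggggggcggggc
Ddost, chr4:138304488-138304767, plus strand: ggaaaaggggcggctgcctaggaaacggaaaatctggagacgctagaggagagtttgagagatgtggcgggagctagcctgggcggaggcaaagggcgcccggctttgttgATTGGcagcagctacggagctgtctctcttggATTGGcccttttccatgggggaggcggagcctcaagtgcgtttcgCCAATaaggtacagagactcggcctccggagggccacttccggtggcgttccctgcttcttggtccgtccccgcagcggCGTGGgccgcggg
Krtcap2, chr3:89246223-89246502, plus strand: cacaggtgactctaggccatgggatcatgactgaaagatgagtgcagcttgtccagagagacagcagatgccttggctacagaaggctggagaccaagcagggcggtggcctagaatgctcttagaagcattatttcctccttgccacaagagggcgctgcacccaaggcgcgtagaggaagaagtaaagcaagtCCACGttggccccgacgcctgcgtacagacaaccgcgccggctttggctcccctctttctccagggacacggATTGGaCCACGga
Stt3a, chr9:36767593-36767872, minus strand: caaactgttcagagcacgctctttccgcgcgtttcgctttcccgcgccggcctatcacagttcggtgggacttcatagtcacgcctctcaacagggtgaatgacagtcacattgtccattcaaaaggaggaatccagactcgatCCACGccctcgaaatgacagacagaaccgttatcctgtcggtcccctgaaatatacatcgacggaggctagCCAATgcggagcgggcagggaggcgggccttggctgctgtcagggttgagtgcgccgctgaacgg
Stt3b, chr9:115310439-115310718, minus strand: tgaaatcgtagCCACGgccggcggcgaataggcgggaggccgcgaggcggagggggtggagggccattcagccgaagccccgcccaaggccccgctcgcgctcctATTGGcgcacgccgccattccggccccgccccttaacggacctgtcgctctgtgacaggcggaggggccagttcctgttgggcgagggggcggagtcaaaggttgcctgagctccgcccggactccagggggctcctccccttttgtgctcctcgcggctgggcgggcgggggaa
These letters are parts of the endoplasmic reticulum stress element (ERSE), in which 9 bases part CCAAT from CCACG, and of its shorter relative ERSE-II, in which 1 base parts ATTGG from CCACG. Factors of the unfolded protein response are known to bind to both. Both strands of windows of 300 bases (250 before to 50 after the start) were searched, 32851 windows of 27025 genes. A window was at hand for 37 of the 44 genes. The 15 genes with a window among the 18 that fell with 2DG had 19 windows, since Rpn2, Krtcap2 and Mgat1 have more than one start, and the 22 others had 1 each. The separate element CCAAT was in 11 of the 19 windows (57.9%), in 10 of the 22 (45.5%) and in 37.4% of all windows. CCACG was in 11 of the 19 (57.9%), in 11 of the 22 (50%) and in 32.8% of all. ERSE-II was in 12 of all windows (0.0365%), and 1 of them was the printed one of Krtcap2, 18 to 28 bases after its start. That window was picked for printing because it holds ERSE-II, and the window of the other Krtcap2 start does not hold it. The full ERSE was in 39 of all windows (0.119%), and the only one of the group to hold it was Alg12, a mannosyltransferase that was not called in any comparison. TGACGTGG, the core of the unfolded protein response element, was in 0.676% of all windows and in none of the 41 of the group. The CCAAT and CCACG counts include any copies inside ERSE and ERSE-II, and a match describes these letters, not a bound site.

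Library totals ran from 15596040 to 22480545 counts at 6 weeks, from 20692818 to 26079979 in untreated 10-week spleens and from 21581820 to 23835453 with 2DG. The N-glycosylation genes together took 0.312% to 0.354%, 0.341% to 0.383% and 0.292% to 0.306% of all counts in the 3 groups, in that order. Values are counts scaled to library size (CPM) with TMM factors, fold changes are on the log2 scale with their standard error (SE), and a gene is said to rise or fall when its edgeR adjusted p over all genes tested was under 0.05. In whole spleen, fewer cells of a type and less RNA per cell cannot be told apart. The cell makeup differed between the groups: the summed level of 12 plasma cell markers was 2640 to 4710 CPM at 6 weeks, 4330 to 7680 untreated at 10 weeks and 1960 to 2940 with 2DG, and no gene of this or the other marker lists (B cell, T cell, erythroid, myeloid and spleen stroma) was at 0 in any library. With 2DG 11 of the 12 were lower than in untreated 10-week spleens, with a median log2 change of -1.46 over the list. Immunoglobulin genes took 2.79% to 4.94%, 5.11% to 10.7% and 1.93% to 3.08% of counts in the 3 groups. For 2DG against untreated at 10 weeks none of the 8 B cell, 8 T cell, 8 neutrophil and 8 erythroid markers was called, although the erythroid markers had a median log2 change of 1.04, and 7 of them and 1 each of the B and T cell markers had an unadjusted p under 0.05. Of 8 monocyte and macrophage markers C1qa (log2 -0.88) and Ly6c2 (log2 -1.21) were lower, and of 8 spleen stroma markers Tlx1 (log2 0.65) and Vwf (log2 0.89) were higher. The summed B cell markers and the summed T cell markers overlapped between all 3 groups.

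With 2DG, 18 of the 44 genes were lower than in untreated spleens of the same age, 1 was higher and 25 did not pass the test (edgeR). Over all 18542 genes tested 7.42% were called in this comparison, 5.26% as lower and 2.16% as higher, so 40.9% of the group stood against 5.26% of all genes. The log2 change was below 0 for 36 of the 44 (81.8%), against 48.2% of all genes, and its median was -0.20, against 0.01 for all genes. Changes were moderate, from -0.72 for Krtcap2 to 0.28 for Tusc3. In 21 of the 44 all 4 treated libraries lay under all 4 untreated ones, and in 2 they lay over them, where 7.91% and 4.48% of all genes did so. The summed level of the 44 genes was 4130, 3570, 3960 and 3400 CPM in untreated 10-week spleens and 2930, 2920, 2880 and 2950 CPM with 2DG, with no overlap. The treated libraries lay close together, with an SD of 29.4 CPM against 338 CPM untreated. Without replicate 10 or without replicate 11, both treated, 10 of the 44 (22.7%) were called in place of 19, against 2.75% and 2.74% of all genes, and in a fit of these 8 libraries alone 11 were called (25%, against 3.21% of all genes).

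**Figure D1:**
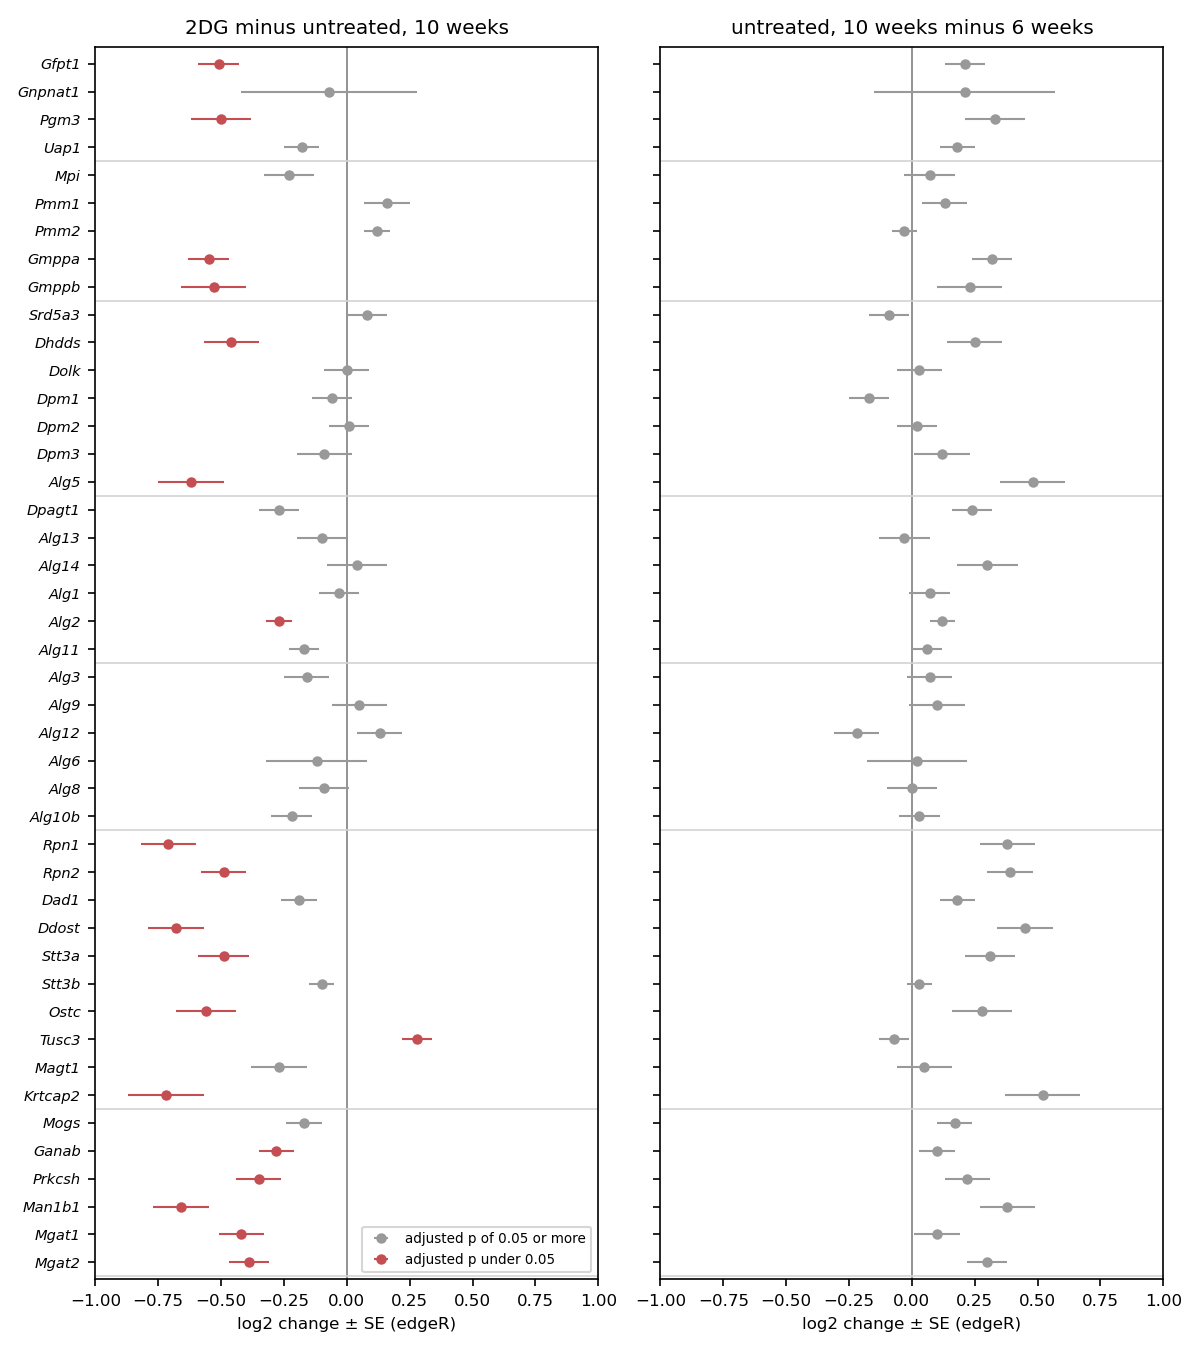
Log2 change (x axis, bars are ± 1 SE, edgeR) of each of the 44 genes (y axis, grey lines part the roles), for 2DG against untreated at 10 weeks in the left panel and for untreated 10 against 6 weeks in the right panel, with red points for an adjusted p under 0.05. In the left panel 36 of the 44 points lie to the left of 0, and such points prevail in every role. The median is lowest for the oligosaccharyltransferase (-0.49) and trimming (-0.37) genes, while the luminal assembly genes stay between -0.22 and 0.13.

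The supply of UDP-GlcNAc, the first sugar donor of the route, starts with Gfpt1, the rate-limiting enzyme of the hexosamine pathway. Of its 4 genes 2 fell with 2DG, none rose, and their median log2 change was -0.34. Gfpt1 (chromosome 6, 87042846 to 87092197, plus strand) stood at 160, 138, 151 and 133 CPM at 6 weeks, 172, 154, 192 and 154 CPM untreated at 10 weeks, and 123, 119, 111 and 117 CPM with 2DG, each list in replicate order. Every treated library was below every library of both untreated groups. Against untreated 10-week spleens the log2 change was -0.51 (SE 0.08, adjusted p = 0.00374), 0.701 of the untreated level. Pgm3, the phosphoacetylglucosamine mutase, read 18.6, 17.0, 17.7 and 12.5 CPM in untreated 10-week libraries and 11.3, 9.96, 12.0 and 13.2 CPM with 2DG, against 12.6 to 13.6 CPM at 6 weeks. It fell by 0.50 on the log2 scale (SE 0.12, adjusted p = 0.0279), although the untreated replicate 8 was within the treated range. That call was lost without any one of replicates 5, 7, 9, 10 and 11 and in a fit of the 10-week libraries alone, with adjusted p up to 0.0994, and 28.3% of the gene's exonic bases overlap Dop1a on the other strand. Uap1, which joins the sugar to UDP, had means of 56.7 CPM untreated and 49.9 CPM with 2DG, and its groups did not overlap, but it did not pass the test (log2 -0.18, adjusted p = 0.116). Gnpnat1, the acetyltransferase of this pathway, was at 0.26 to 0.848 CPM with at most 19 counts in a library, so no difference was detectable at this depth, and 81.9% of its exonic bases overlap Styx on the other strand.

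GDP-mannose, the donor of most sugars of the glycan, is made from fructose 6-phosphate by Mpi, Pmm1 or Pmm2 and the pyrophosphorylase Gmppb, with Gmppa as its regulatory partner. Both pyrophosphorylase genes fell with 2DG, and the other 3 did not pass the test. Gmppa (chromosome 1, 75435930 to 75443179, plus strand) was at 44, 41.3, 40.5 and 39.5 CPM at 6 weeks, 59.4, 51.6, 49.5 and 45.7 CPM untreated at 10 weeks, and 34.0, 32.3, 36.5 and 38.2 CPM with 2DG. The 3 groups did not overlap, with untreated 10-week libraries on top, 6-week libraries between and treated libraries lowest. Its log2 change with 2DG was -0.55 (SE 0.08, adjusted p = 0.00292), the smallest adjusted p of the 44 genes. Gmppb, the catalytic subunit, read 33.1, 22.7, 32.0 and 24.7 CPM untreated and 19.6, 20, 17.8 and 20.7 CPM with 2DG, without overlap, and fell by 0.53 (SE 0.13, adjusted p = 0.0335). Leaving out replicate 5, 7, 9, 10 or 11, or fitting the 10-week libraries alone, ended this call (adjusted p up to 0.105), and 33.6% of its exonic bases overlap Rnf123 on the other strand.

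The 3 enzymes upstream of the pyrophosphorylase had log2 changes from -0.23 to 0.16. Pmm2, the main phosphomannomutase, read 64.0, 63.9, 61.8 and 65.5 CPM untreated and 65.8, 72.3, 72 and 67.5 CPM with 2DG. All treated libraries lay above all untreated ones, yet by only 0.12 on the log2 scale (SE 0.05, adjusted p = 0.169). Pmm1 read 17.7, 13.9, 17.2 and 16.6 CPM untreated and 18.5, 18.3, 19.5 and 16.6 CPM with 2DG (log2 0.16, SE 0.09, adjusted p = 0.324), and these groups overlapped. Mpi, the mannose phosphate isomerase, had means of 15.7 CPM untreated and 13.4 CPM treated (log2 -0.23, adjusted p = 0.164). Within a library, the log2 ratio of Pmm2 to Pmm1 differed by -0.04 between treated and untreated 10-week spleens (two-sided exact permutation test, p = 0.771, adjusted 0.829), and that of Gmppb to Gmppa by 0.03 (exact permutation p = 0.829, adjusted 0.829).

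Of the 7 genes for dolichol and its sugar phosphates, 2 fell with 2DG and the list's median log2 change was -0.06. Dhdds, the catalytic subunit of the prenyltransferase that builds the dolichol chain, read 71.4, 56.3, 76.1 and 57.6 CPM untreated and 46.8, 51.2, 48.4 and 44.1 CPM with 2DG. These groups were separate, and the log2 change was -0.46 (SE 0.11, adjusted p = 0.0274). The call was lost without any one of replicates 5, 7, 9, 10, 11 and 12 and with the 10-week libraries alone (adjusted p up to 0.0831). Alg5, which makes dolichol-phosphate glucose, read 28.8, 26.5, 26.3 and 25.8 CPM at 6 weeks, 42.5, 46.3, 33.4 and 27.5 CPM untreated at 10 weeks, and 25.8, 23, 24.1 and 24.5 CPM with 2DG. Replicates 5 and 6 were highest, replicate 8 was near the 6-week level, and all treated libraries were under all untreated 10-week ones. Alg5 fell by 0.62 (SE 0.13, adjusted p = 0.0146), a call lost without replicate 10 or replicate 11 and with the 10-week libraries alone (adjusted p up to 0.0589). Dpm1, Dpm2 and Dpm3, the subunits of the synthase of dolichol-phosphate mannose, had log2 changes of -0.06, 0.01 and -0.09, the polyprenol reductase gene Srd5a3 0.08 and the dolichol kinase gene Dolk 0.00, and none of these 5 passed the test.

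On the cytosolic face, where N-acetylglucosamine and the first mannose residues are added, 1 of the 6 genes fell, and the median log2 change was -0.14. This was Alg2, a mannosyltransferase, at 57.1, 57.5, 55.1 and 59.3 CPM at 6 weeks, 63.1, 64.2, 61.9 and 60.0 CPM untreated at 10 weeks, and 51.1, 52.8, 50.2 and 52.7 CPM with 2DG. The 3 groups did not overlap, and the spread within each was small. Its fall was also small, 0.27 on the log2 scale (SE 0.05, adjusted p = 0.00721), and with library totals as the only scaling the adjusted p was 0.0561. Dpagt1, which starts the glycan on dolichol phosphate and is the target of tunicamycin, read 36.6, 31.8, 33.7 and 29.9 CPM untreated and 26.8, 26.1, 29.1 and 27 CPM with 2DG. Its groups did not overlap, but it missed the threshold (log2 -0.27, SE 0.08, adjusted p = 0.0522), and it passed without replicate 6 (adjusted p = 0.0473) or without replicate 8 (adjusted p = 0.0224). Alg13, Alg14, Alg1 and Alg11 were between -0.17 and 0.04.

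None of the 6 luminal genes passed the test for 2DG against untreated at 10 weeks (edgeR), 1 of them had an unadjusted p under 0.05 (as had 24.5% of all genes), and all 6 log2 changes lay between -0.22 and 0.13. Alg10b, which adds the last glucose, read 101, 123, 112 and 113 CPM untreated and 104, 98.6, 83.8 and 100 CPM with 2DG (log2 -0.22, SE 0.08, adjusted p = 0.103). Alg3, which adds the first luminal mannose, read 13.2, 13.0, 12.5 and 13.3 CPM untreated and 10.4, 11.6, 13.0 and 11.5 CPM with 2DG (log2 -0.16, SE 0.09, adjusted p = 0.322). In both genes the treated and untreated libraries overlapped. Alg9 and Alg12 (mannosyltransferases) and Alg6 and Alg8 (glucosyltransferases) had log2 changes of 0.05, 0.13, -0.12 and -0.09.

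The oligosaccharyltransferase, a membrane complex built around the catalytic subunit Stt3a or Stt3b, had 6 subunit genes lower, 1 higher and 3 not called among 10, with a median log2 change of -0.49. Per kilobase of exonic sequence, the untreated 10-week level was highest for Ddost, at 95 CPM per kb, followed by Rpn1 at 70.4, Rpn2 at 64.9 and Stt3b at 60.4, and lowest for Tusc3 at 8.57. Exonic length here joins all annotated transcripts of a gene, so it can overstate the length in use.

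Rpn1 (ribophorin I, chromosome 6, 88084482 to 88105304, plus strand), a structural subunit, stood at 286, 239, 249 and 202 CPM at 6 weeks, 371, 298, 338 and 264 CPM untreated at 10 weeks, and 196, 193, 193 and 197 CPM with 2DG. All treated libraries were below all others and close to each other. The log2 change against untreated at 10 weeks was -0.71 (SE 0.11, adjusted p = 0.00332), 0.613 of the untreated level. Ddost, the subunit OST48 (chromosome 4, 138304730 to 138312628, plus strand), followed the same order, with 174, 148, 146 and 122 CPM at 6 weeks, 239, 199, 205 and 162 CPM untreated at 10 weeks, and 128, 125, 127 and 124 CPM with 2DG. Replicate 4, at 6 weeks, was under the treated range, and the 10-week groups did not overlap (log2 -0.68, SE 0.11, adjusted p = 0.00471). Rpn2 (ribophorin II) read 322, 298, 292 and 238 CPM untreated and 204, 205, 200 and 208 CPM with 2DG, without overlap, and fell by 0.49 (SE 0.09, adjusted p = 0.00653).

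Among the smaller subunits, Krtcap2, which belongs to the Stt3a form of the complex (chromosome 3, 89245966 to 89249906, plus strand), read 57.5, 48.1, 46.4 and 40.1 CPM at 6 weeks, 89.3, 64.9, 69.3 and 51.8 CPM untreated at 10 weeks, and 44.9, 37.2, 41.7 and 43.2 CPM with 2DG. It had the largest fall of the 44 genes, 0.72 on the log2 scale (SE 0.15, adjusted p = 0.0135), and the 10-week groups were separate. Without replicate 10 the adjusted p was 0.0532, and 15.7% of its exonic bases overlap Trim46 on the other strand. Ostc, which docks the Stt3a form at the translocon, read 128, 88.6, 112 and 89.5 CPM untreated and 70.2, 69.0, 69.4 and 73.9 CPM with 2DG, also separate. It fell by 0.56 (SE 0.12, adjusted p = 0.0137), and without replicate 10 or 11 the adjusted p rose to at most 0.0508. Dad1, a subunit of both forms, had means of 84.3 CPM untreated and 73.7 CPM with 2DG without overlap, and did not pass the test (log2 -0.19, adjusted p = 0.0978).

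**Figure D2:**
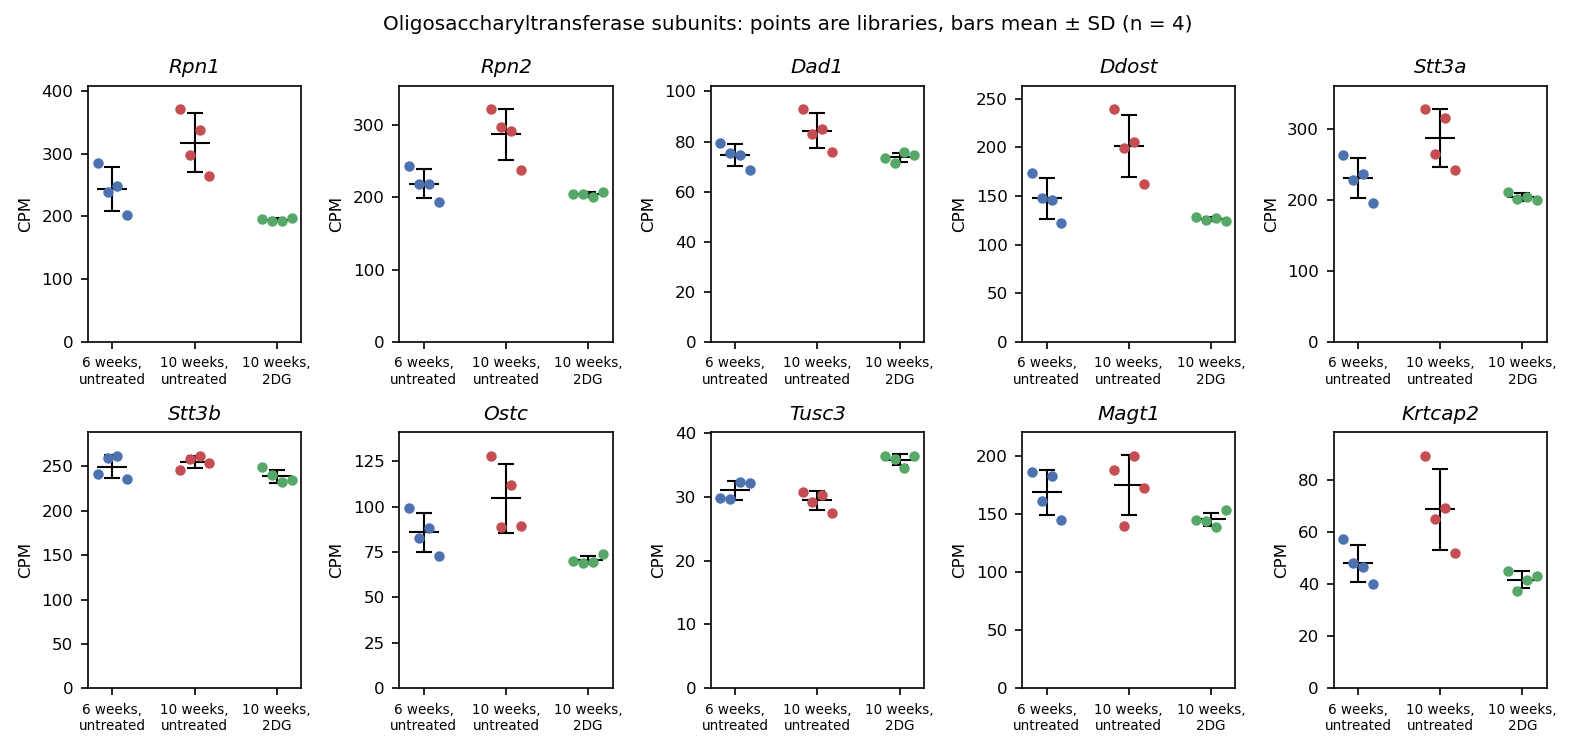
CPM of the 10 oligosaccharyltransferase genes in each of the 12 libraries (points) with the mean ± SD of each group (n = 4), 1 panel per gene. In Rpn1, Rpn2, Ddost, Stt3a, Ostc and Krtcap2 the treated libraries lie together under the untreated 10-week libraries, in Stt3b they overlap and in Tusc3 they lie above.

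Of the catalytic subunits, Stt3a fell and Stt3b did not pass the test. Stt3a, which acts during translation (chromosome 9, 36729344 to 36767679, minus strand), stood at 264, 228, 236 and 196 CPM at 6 weeks, 328, 265, 315 and 242 CPM untreated at 10 weeks, and 212, 201, 204 and 200 CPM with 2DG. Its fall was 0.49 on the log2 scale (SE 0.10, adjusted p = 0.0136), and the 10-week groups did not overlap. Stt3b, which also glycosylates sites that the first enzyme skipped (chromosome 9, 115242581 to 115310421, minus strand), read 241, 259, 262 and 236 CPM at 6 weeks, 246, 258, 262 and 254 CPM untreated at 10 weeks, and 249, 240, 232 and 235 CPM with 2DG. These ranges overlapped in all 3 groups (log2 -0.10, SE 0.05, adjusted p = 0.291 for 2DG against untreated at 10 weeks). The log2 ratio of Stt3a to Stt3b counts within a library was 0.41, 0.04, 0.27 and -0.07 untreated and -0.23, -0.25, -0.19 and -0.23 with 2DG. The treated ratios were all lower, by 0.39 on average. A two-sided exact permutation test gave p = 0.0286, a value no test of this design can go under. The adjusted p over the 12 ratio tests made was 0.114, so the difference did not pass the correction. At that floor no ratio could pass it on its own, even with groups fully apart, so the adjusted p cannot decide on this difference.

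The oxidoreductase subunits of the Stt3b form are alternatives to each other, and here 1 was higher and the other not called. Tusc3 (chromosome 8, 39005845 to 39165114, plus strand) was the only one of the 44 genes to rise with 2DG, at 29.8, 29.6, 32.3 and 32.2 CPM at 6 weeks, 30.8, 29.1, 30.3 and 27.5 CPM untreated at 10 weeks, and 36.4, 35.9, 34.5 and 36.3 CPM with 2DG. Each treated library was above each of the 8 untreated ones. The rise was 0.28 (SE 0.06, adjusted p = 0.0163), or 1.22-fold, and it missed the threshold without replicate 10 (adjusted p = 0.0548), with no filter (0.0652) and in a fit of the 10-week libraries alone (0.054). Magt1 read 188, 140, 200 and 172 CPM untreated and 145, 144, 139 and 153 CPM with 2DG, with replicate 6 inside the treated range. Its log2 change was -0.27 (SE 0.11, adjusted p = 0.137), and without replicate 6 it was called (log2 -0.36, adjusted p = 0.0209). The log2 ratio of Magt1 to Tusc3 was 2.61, 2.27, 2.72 and 2.64 untreated, 2.00, 2.00, 2.01 and 2.07 with 2DG, and 2.64, 2.44, 2.50 and 2.17 at 6 weeks. Treated libraries were lower than every other library, by 0.54 against untreated 10-week and by 0.42 against 6-week spleens (exact permutation p = 0.0286 and adjusted 0.114 for both). Here too p was at the floor of the design, so the adjusted p cannot decide on these differences.

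**Figure D3:**
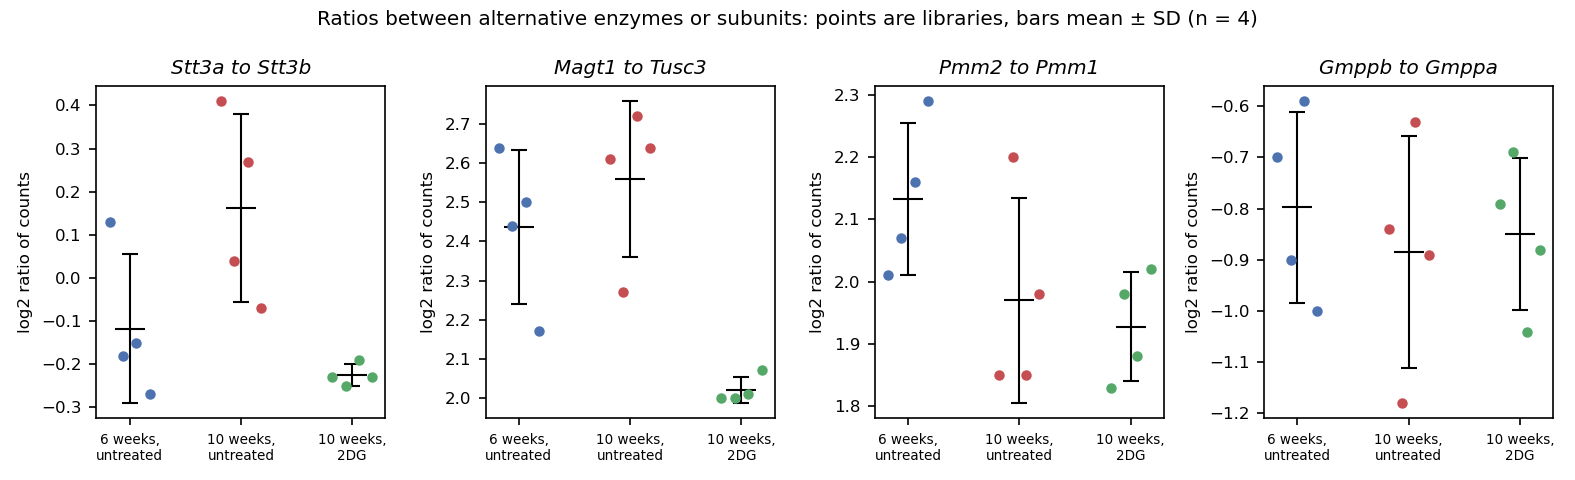
Log2 ratio of counts within each library (y axis) for 4 pairs of genes that serve the same step, by group (points are libraries, bars the mean ± SD, n = 4). The ratios of Stt3a to Stt3b and of Magt1 to Tusc3 are lower in all 4 treated libraries than in all 4 untreated 10-week libraries, while those of Pmm2 to Pmm1 and Gmppb to Gmppa overlap.

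Of the 6 enzymes that trim and first branch the glycan, 5 fell with 2DG and the log2 change of all 6 was below 0, with a median of -0.37. Man1b1, an α-mannosidase of the early secretory route that marks misfolded glycoproteins (chromosome 2, 25332338 to 25352212, plus strand), read 161, 138, 137 and 120 CPM at 6 weeks, 217, 172, 186 and 150 CPM untreated at 10 weeks, and 117, 115, 110 and 116 CPM with 2DG. No treated library reached any other library, and the log2 change was -0.66 (SE 0.11, adjusted p = 0.00384). Mgat1, which adds the first branch and so opens the way to complex glycans, read 168, 168, 167 and 170 CPM at 6 weeks, 197, 146, 205 and 173 CPM untreated at 10 weeks, and 127, 136, 133 and 143 CPM with 2DG. It fell by 0.42 (SE 0.09, adjusted p = 0.0145), with treated libraries below all others. Without replicate 11 its adjusted p was 0.0523, and with the 10-week libraries alone it was 0.0641. Mgat2, which adds the next branch, read 99.1, 103, 94.3 and 78.7 CPM untreated and 72.8, 73.1, 68.8 and 72.6 CPM with 2DG, without overlap, and fell by 0.39 (SE 0.08, adjusted p = 0.0123, or 0.0506 without replicate 11).

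The glucosidase genes had smaller fitted changes. Ganab, the catalytic subunit of glucosidase II, read 356, 290, 348 and 318 CPM untreated and 261, 272, 269 and 279 CPM with 2DG, and fell by 0.28 (SE 0.07, adjusted p = 0.0341). Prkcsh, its β subunit, read 117, 86.0, 99.6 and 91.4 CPM untreated and 77.1, 78.6, 77.9 and 76.5 CPM with 2DG, and fell by 0.35 (SE 0.09, adjusted p = 0.0328). Neither gene's 10-week groups overlapped. Both calls were lost without any one of replicates 5, 7, 9, 10, 11 and 12, with the 10-week libraries alone and with library totals as the only scaling, and that of Ganab also without replicate 2. The adjusted p reached 0.0969 for Ganab and 0.0874 for Prkcsh. Mogs, glucosidase I, had means of 69.7 CPM untreated and 62 CPM with 2DG and did not pass the test (log2 -0.17, adjusted p = 0.177).

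Genes around the route were taken from lists of related function. In the list of lectin chaperones and glycoprotein disposal, 6 of 15 genes fell with 2DG, none rose, and the median log2 change was -0.40. Edem1, which helps send misfolded glycoproteins to degradation, had means of 453 ± 80.1 CPM at 6 weeks, 716 ± 157 untreated at 10 weeks and 278 ± 25.3 with 2DG (SD, n = 4 each), and fell by 1.37 (SE 0.16, adjusted p = 0.00176). Its relative Edem2 fell by 1.11 (SE 0.15, adjusted p = 0.00176). Both fitted changes were larger than any among the 44 N-glycosylation genes. Of 17 Golgi processing genes 4 fell and 1 rose, with a median of -0.11. Fut8, which adds the core fucose, was at 114 ± 19.1 CPM untreated and 62.2 ± 3.28 with 2DG (SD, n = 4 each) and fell by 0.88 (SE 0.14, adjusted p = 0.0042), and the mannosidase gene Man1a2 fell by 0.27 (SE 0.05, adjusted p = 0.0085). Of 14 other sugar nucleotide genes 4 fell, with a median of -0.18, among them Gne (log2 -0.33, adjusted p = 0.0151) and Nans (log2 -0.41, adjusted p = 0.0366), both of sialic acid synthesis. None of 7 further dolichol and oligosaccharyltransferase genes was called (edgeR, smallest adjusted p 0.0775, 3 with unadjusted p under 0.05).

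Synthesis of the GPI anchor, which also uses dolichol-phosphate mannose and UDP-GlcNAc, had calls at about the share of all genes: of 23 genes tested 1 fell (4.35%, against 5.26% of all genes) and none rose, 12 log2 changes were above 0 and 11 below, and the median was 0.07. The gene that fell was Pigt, a subunit of the GPI transamidase (82.4 ± 8.73 CPM untreated and 61.4 ± 2.31 with 2DG, SD, n = 4 each, log2 -0.42, adjusted p = 0.00459). The summed GPI level was 905 to 1030 CPM untreated and 996 to 1160 CPM with 2DG, which overlap. The summed level of the 10 oligosaccharyltransferase genes was 1660, 1490, 1540 and 1310 CPM at 6 weeks, 2030, 1720, 1910 and 1580 CPM untreated at 10 weeks, and 1360, 1320, 1320 and 1340 CPM with 2DG. Treated libraries lay below all untreated 10-week libraries, with replicate 4 at 6 weeks under them. Over the same libraries, in the same order, the summed plasma cell markers were 4710, 3930, 3480 and 2640 CPM, then 7680, 4330, 7200 and 4730 CPM, then 2940, 1980, 1960 and 2760 CPM. Replicates 5 and 7 were highest, and replicate 4 lowest at 6 weeks, in both sums. The order of replicates 2 and 3, and that of replicates 6 and 8, differed between the sums. With 2DG the marker sum was below that of each untreated 10-week library. Within the treated group it ran from 1960 to 2940 CPM, while the oligosaccharyltransferase sum stayed at 1320 to 1360 CPM. The part of plasma cell number in the changes of the N-glycosylation genes was not tested.

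**Figure D4:**
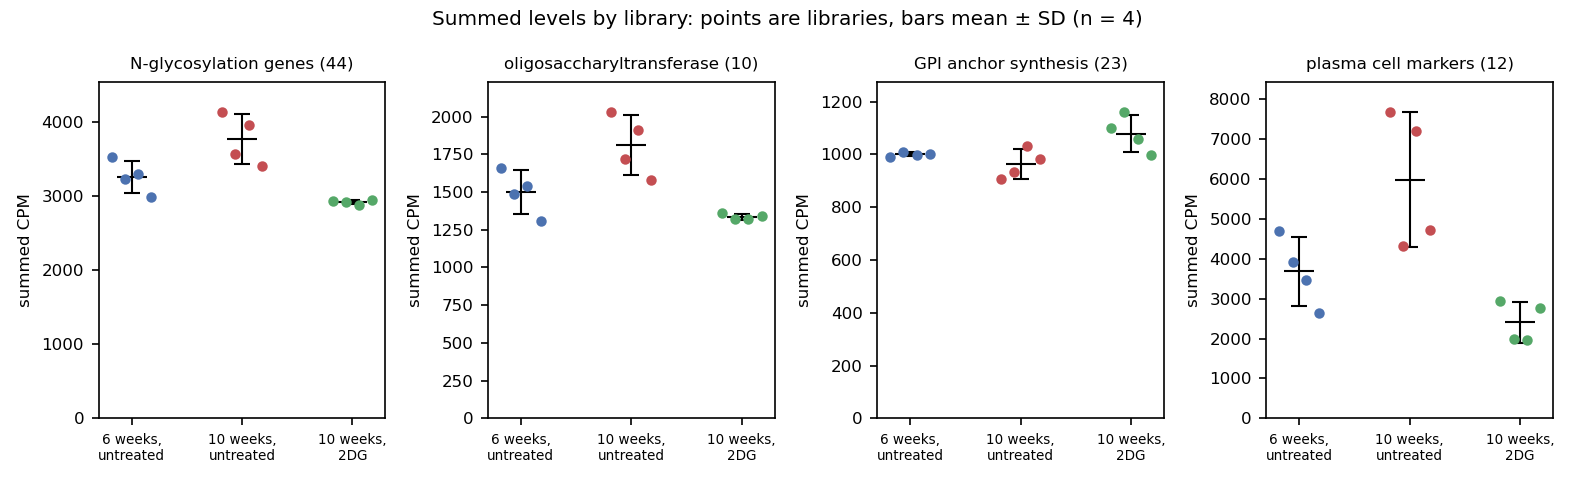
Summed CPM of gene lists in each of the 12 libraries by group (points are libraries, bars the mean ± SD, n = 4), 1 panel per list. The oligosaccharyltransferase sum is 1320 to 1360 with 2DG and 1580 to 2030 untreated at 10 weeks, the plasma cell marker sum is 1960 to 2940 and 4330 to 7680, and the GPI anchor sums overlap.

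Between 6 and 10 weeks without treatment none of the 44 genes was called (edgeR), where 0.00539% of all genes, a single gene, was called. Of the 44, 21 (47.7%) had an unadjusted p under 0.05, against 17.1% of all genes, and the smallest adjusted p was 0.0934, for Rpn2. The log2 change with age was above 0 for 38 of the 44 and its median was 0.13, against 0.01 for all genes, of which 48.5% were below 0. With library totals as the only scaling the median of all genes was -0.09, that of the 44 was 0.03, and 18 of the 44 were below 0 in place of 6. By role, the median was 0.30 for the oligosaccharyltransferase, 0.21 for UDP-GlcNAc supply, 0.20 for trimming and branching, 0.13 for GDP-mannose, 0.10 for cytosolic assembly, and 0.03 for both the dolichol and the luminal genes. The larger values were 0.52 for Krtcap2 (adjusted p = 0.131), 0.48 for Alg5 (adjusted p = 0.12), 0.45 for Ddost (adjusted p = 0.111) and 0.39 for Rpn2. The 10-week libraries were above the 6-week ones without overlap for Gmppa, Dpagt1, Alg14 and Alg2, and below them for Alg12, 4 and 1 of 44 where 3.64% and 3.33% of all genes did so. The summed plasma cell markers, 2640 to 4710 CPM at 6 weeks and 4330 to 7680 at 10 weeks, moved in the same direction and overlapped.

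One library bore on the age comparison. Replicate 8 was the lowest of the untreated 10-week libraries for Rpn1, Rpn2, Ddost, Stt3a and Krtcap2, with 264 CPM for Rpn1 where the other 3 had 298 to 371. Without it, 11 of the 44 genes were called as higher at 10 weeks: Pgm3, Gmppa, Alg5, Dpagt1, Rpn1, Rpn2, Ddost, Stt3a, Krtcap2, Man1b1 and Mgat2. Calls over all genes went from 1 to 1563 in that fit, 858 of them (4.57% of the genes tested) higher. There the log2 change was 0.48 for Rpn2 (adjusted p = 0.00524), 0.60 for Alg5 (adjusted p = 0.00667) and 0.38 for Mgat2 (adjusted p = 0.00619). With all 12 libraries DESeq2 called 8 genes (18.2% of the 44) as higher: Gmppa, Alg5, Rpn1, Rpn2, Ddost, Krtcap2, Man1b1 and Mgat2. Without a filter, edgeR called Rpn2 (2.27% of the 44, log2 0.41, adjusted p = 0.0364). Both fits took in 36604 genes, of which they called 470 (1.28%) and 71 (0.194%) as higher.

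**Figure D5:**
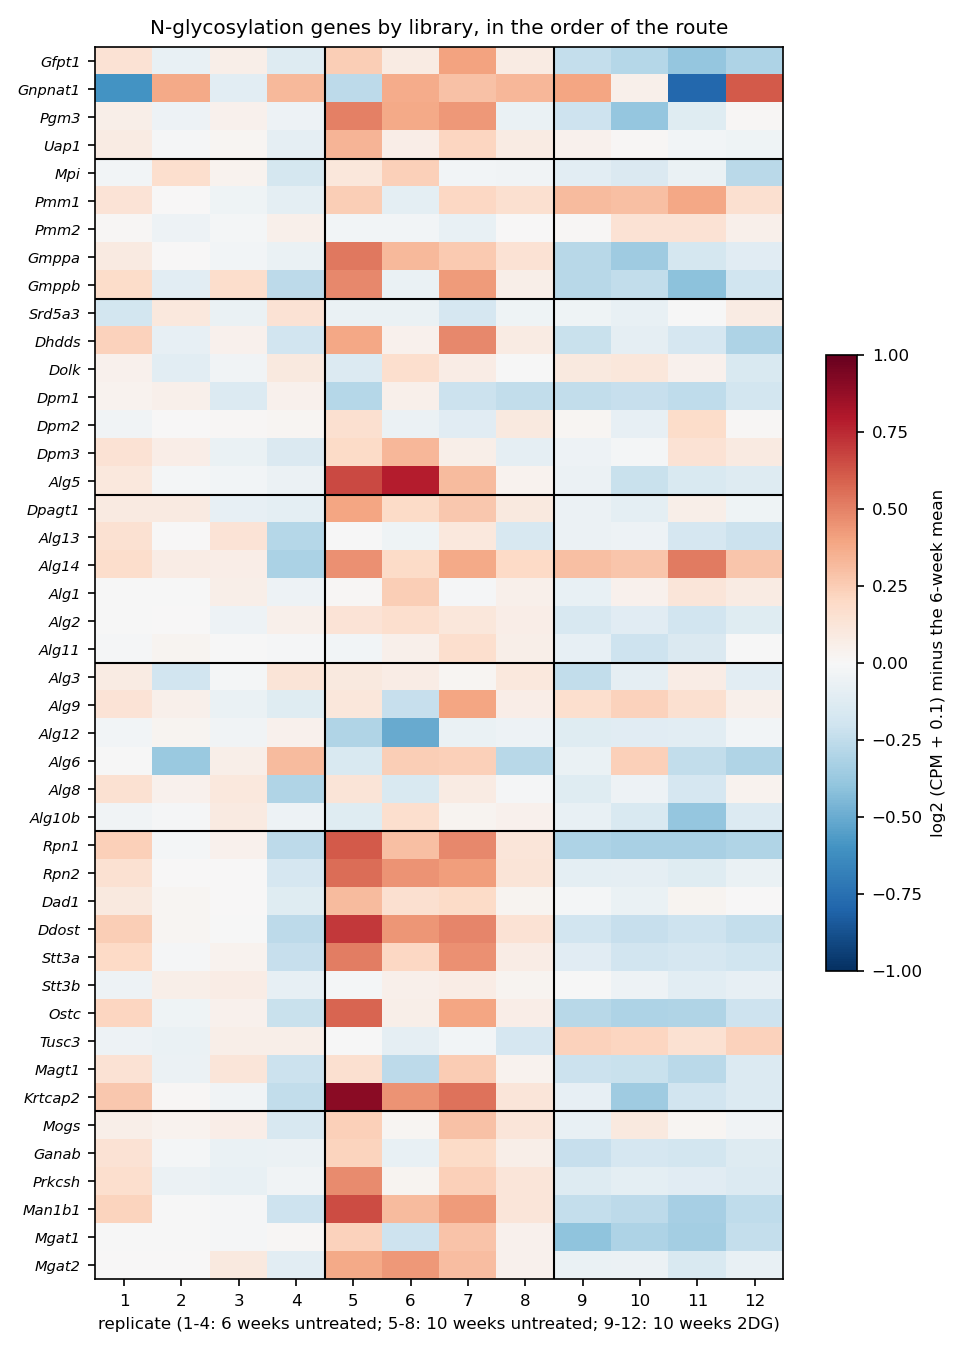
Level of each of the 44 genes (rows, by role) in each of the 12 libraries (columns, by group), as log2 of CPM plus a small constant, minus the gene's mean at 6 weeks. Rows such as Rpn1, Ddost and Man1b1 are highest in replicates 5 and 7 and low and even in the 4 treated libraries, and Tusc3 is highest in the treated ones.

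Set against 6-week untreated spleens, 10-week spleens with 2DG had none of the 44 genes called (edgeR), where 0.129% of all genes were called, 0.0378% as higher and 0.0917% as lower. Of the 44, 14 (31.8%) had an unadjusted p under 0.05, against 16.9% of all genes, 33 log2 changes were below 0 and the median was -0.10, against 0.00 for all genes, of which 50.5% were below 0. Age and treatment both differ in this comparison and cannot be told apart in it. Marker levels differed too: all 12 plasma cell markers had log2 changes below 0 (median -0.81). All 8 erythroid markers were above the 6-week libraries without overlap (median 1.29). The medians of the other marker lists lay between -0.26 and 0.09, and no marker was called. The part of cell makeup in this comparison was not tested. In 10 genes all treated libraries were below all 6-week libraries (Gfpt1, Gmppa, Dpm1, Alg2, Alg10b, Rpn1, Ganab, Prkcsh, Man1b1 and Mgat1), and in 3 they were above (Pmm1, Alg14 and Tusc3), where 7.69% and 7.98% of all genes were so placed. The log2 change was -0.30 for Gfpt1 (adjusted p = 0.105, the smallest), -0.32 for Mgat1 (adjusted p = 0.108), -0.33 for Rpn1 (adjusted p = 0.156) and 0.21 for Tusc3 (adjusted p = 0.123). Mgat1 was at 168 ± 1.29 CPM at 6 weeks against 135 ± 6.70 with 2DG (SD, n = 4 each), and it was called without replicate 6 (log2 -0.32, adjusted p = 0.0384), where 344 of all genes were called. Other tools called more: DESeq2 called Gfpt1 and Mgat1 as lower and Tusc3 as higher, limma voom with quality weights called 9 of the 44, and edgeR on these 8 libraries alone called Gfpt1, Rpn1, Man1b1 and Mgat1. Over all genes the same fits called 902 (2.46% of those fitted), 1644 (8.87%) and 1367 (7.54%), in place of 24. Of the 44 genes they called 6.82% with DESeq2, 20.5% with voom and 9.09% on these libraries alone. The last of these was near its share of all genes.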

How the data were processed

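Poly(A)-selected libraries were made from total RNA with the Illumina TruSeq RNA kit v2, per the labels' protocols, and this kit does not mark strand. The authors deposited whole-number counts per gene. The submitters' processing notes list Bowtie2 2.2.0, RSEM 1.2.12 and the build GRCm38 with no role for each. The sources used here do not say how the counts became whole or how shared reads were divided. Of the 44 genes, 14 overlap exons of another gene, 12 of them on the other strand, where reads of both cannot be told apart.

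GENCODE M21 (GRCm38) matched 53620 identifiers to symbols and left 95 unmatched, and RefSeq (GRCm38.p6) supplied promoter windows. Counts were tested with edgeR 4.0.16 (R 4.3.3) after filterByExpr and TMM scaling: robust quasi-likelihood fits over all 12 libraries, with Benjamini-Hochberg adjustment over 18542 genes and a threshold of 0.05. SE is the fitted log2 change over the root of F. Ratios of paired genes used counts with 0.5 added and two-sided exact permutation tests.

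The members, lists and tests were chosen with earlier results of these data known. Genes named with values were all called members, the members with the smallest p in each role, both genes of 4 pairs, and the called genes with the smallest adjusted p in each related list. Other members and genes with values were chosen after their values were seen. Replicate numbers run from 1 to 12 and pair no samples. Pairs of libraries in a group differed beyond sampling noise. Chi-square per gene was 10.5 to 24.3 at 6 weeks, 54.8 to 85.2 untreated at 10 weeks and 10.7 to 31 with 2DG. The main fit shares its estimate of the spread between the 3 groups, although the untreated 10-week libraries varied most. On data simulated for 2DG against untreated at 10 weeks (18357 genes) edgeR recovered 42 of 67 genes changed 1.5-fold, 61 of 67 at 2-fold and 66 of 66 at 4-fold, with 14 false calls. How these numbers depend on unequal spread was not tested.

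Alternatives were DESeq2 1.42.0, limma 3.58.1 voom with quality weights, median-of-ratios size factors, no filter, at least 1 CPM in 4 libraries, the compared groups alone, immunoglobulin genes removed, each library left out, other prior counts for ratios and, chosen after seeing the data, library totals as the only scaling.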

Additional observations from a re-analysis of the deposited data

Results flagged for a closer look

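A library stood far from the other 3 of its group in 2 of 78 sets of 4 checked, and chance alone gives such a gap in about 1 set in 20. Prkcsh was at 94.5 CPM in replicate 1 at 6 weeks, where the other 3 libraries had 80.2 to 82.2. Mgat2 was at 68.8 CPM in replicate 11 with 2DG, where the other 3 had 72.6 to 73.1.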

How the results depend on the processing

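Of the 19 N-glycosylation genes called for 2DG against untreated at 10 weeks, 7 (Gfpt1, Gmppa, Rpn1, Rpn2, Ddost, Stt3a and Man1b1) were called in each of the 20 alternatives. The number called was 11 (25%) when only these groups were fitted and ran from 10 (22.7%) to 21 (47.7%) with 1 library left out. In the other alternatives it was within 1.5 times the main 19. Over all genes, 1376 (7.42%) were called, 2304 (6.29%) with DESeq2, 581 (3.21%) with the compared groups alone and 514 (2.74%) to 2209 (11.8%) with 1 library left out. Library totals as the only scaling gave 1147 higher and 764 lower in place of 401 and 975, moved the median of all genes from 0.01 to 0.10, and left 30 of the 44 genes below 0.

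For 10 against 6 weeks untreated, 8 of the 44 (18.2%) were called with DESeq2, 1 (2.27%) with no filter and 0 to 11 (25%) with 1 library left out. Over all genes, where 1 was called, the counts were 682 (1.86%), 102 (0.279%) and 0 to 1563 (8.33%), and 0 with the compared groups alone. For 2DG against 6 weeks, 3 of the 44 (6.82%) were called with DESeq2, 9 (20.5%) with voom and 4 (9.09%) with the compared groups alone. With 1 library left out 0 to 1 (2.27%) were called. Over all genes, where 24 were called, these gave 902 (2.46%), 1644 (8.87%), 1367 (7.54%) and 1 to 354 (1.89%). No filter gave 98 (0.268%) and library totals 77 (0.415%). The causes were not tested.

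With library totals the age changes of Alg3 (-0.03), Alg10b (-0.06), Stt3b (-0.07) and Magt1 (-0.05) changed sign, and with 1 library left out those of Magt1 (-0.02 to 0.15) and Alg10b (-0.01 to 0.08) could do so. The ratio of Gmppb to Gmppa ran from -0.06 to 0.12 for 2DG against untreated at 10 weeks, from -0.12 to 0.02 for 2DG against 6 weeks and from -0.17 to 0.01 for age, and that of Pmm2 to Pmm1 from -0.08 to 0.04 for 2DG at 10 weeks. None of these was called.

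No paired analysis was possible because the groups share no replicate numbers. Depth limits Gnpnat1, which had at most 19 counts in a library.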
